A study of Mus musculus with 18 samples.

Results

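The cone phototransduction genes are the 9 genes of the light response that are used by cones rather than rods: the opsins Opn1sw and Opn1mw, the arrestin Arr3, the transducin subunits Gnat2 and Gngt2, the phosphodiesterase subunits Pde6c and Pde6h, and the channel subunits Cnga3 and Cngb3. They were chosen by name from the 21951 protein-coding genes of GENCODE M21 and not by a cut on a measured value, though earlier results of these data were known. Each gene was read in a window from 10 kb upstream of its annotated start to its end on mouse build mm10. Distances are given from the start site of the principal transcript instead. For Opn1sw, Pde6c, Pde6h, Cnga3 and Gngt2 that site lies inside the annotated gene, so windows can reach more than 10 kb upstream of it. The windows held 479 of the 911837 peaks listed in the series, and 38 of its 73567 consensus regions. A consensus region is a merged stretch of overlapping peaks that was listed in at least 2 libraries, and a library "called" a region when its list held a peak there.

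The lists came from ATAC-seq of whole mouse retina, an assay in which a transposase cuts accessible chromatin and leaves sequencing adapters there. There were 18 libraries of wild-type (WT) mice in 6 groups of 3, at 3 months (3mo) and 18 months (18mo) of age. IOP retinas came from eyes held at an intraocular pressure of 30 mmHg for 1 hour, contralateral control retinas from the opposite eyes of pressure-treated animals, and both were labelled as collected on day 2, where the study's text names a later day. Untreated retinas carried the replicate numbers 4 to 6 and came from mice without the procedure. The treatment text common to every label also describes dasatinib given after IOP, and no label assigns a library to drug or vehicle. The protocol text common to every label describes an immunoprecipitation, while the study's methods for ATAC-seq do not. Each library was 1 retina per the study's methods, but the labels do not say which eyes came from the same animal, so the p-values measure the spread between these retinas.

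Cones work in bright light and give colour vision, while the far more numerous rods of the mouse retina work in dim light. Light changes the shape of an opsin, the opsin activates transducin, transducin releases the phosphodiesterase from its inhibitory subunit, cGMP is broken down and the cGMP-gated channel closes. Arrestin binds the activated opsin and ends the response. Crx and Otx2 are homeodomain factors that drive photoreceptor genes and bind sites with the letters TAATCC, and nuclear receptors that take part in cone opsin choice bind half-sites with the letters AGGTCA.

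The libraries listed 36011 to 66160 peaks each. Untreated libraries had narrower peaks, with a median width of 161 to 192 bp against 264 to 395 bp in the other 12 libraries, so kind of control and the making of the lists cannot be told apart. Those 12 were not alike either. Widths were 264 to 283 bp in 3mo contralateral control replicate 2, 3mo IOP replicate 1, 18mo contralateral control replicates 1 and 3 and 18mo IOP replicate 1. The rest had 359 to 395 bp, and what this did to the IOP comparison was not tested. The tissue label was checked with promoters, taken from 1000 bp before to 100 bp after a transcription start site. All 3 general photoreceptor marker genes (Crx, Rcvrn and Prph2) and all 3 rod markers (Nrl, Nr2e3 and Gnat1) had a promoter peak in every library. Of the 8 cone markers, 4 had one in every library: Arr3 and Gngt2, and also Thrb and Rxrg, nuclear receptors of cones that are not among the 9 genes. Among the other retinal markers, 1 of 3 bipolar, 1 of 3 amacrine and horizontal, 1 of 3 Müller glia and 1 of 3 ganglion cell genes had one in every library. None of 3 pigment epithelium genes and none of 2 liver genes had a promoter region, and of 2 skeletal muscle genes Ckm had one in 6 libraries.

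The sequences below are the accessible stretches on which the following results turn. They are 201 bases around the median summit, taken from the mm10 genome and read on the strand of the gene, for regions near 4 of the genes that were called in all 18 libraries. Capitals mark matches to TAATCC, to the homeodomain motif TAATTA or to AGGTCA on either strand. TAATCC and TAATTA share the letters TAAT, so their matches can overlap in part.
Opn1sw region 3, chr6:29394419-29394619, minus strand: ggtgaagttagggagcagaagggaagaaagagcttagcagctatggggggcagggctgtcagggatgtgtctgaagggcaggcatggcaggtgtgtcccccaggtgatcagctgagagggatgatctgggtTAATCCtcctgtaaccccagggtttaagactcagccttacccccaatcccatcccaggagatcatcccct
Arr3 region 1, chrX:100597569-100597769, plus strand: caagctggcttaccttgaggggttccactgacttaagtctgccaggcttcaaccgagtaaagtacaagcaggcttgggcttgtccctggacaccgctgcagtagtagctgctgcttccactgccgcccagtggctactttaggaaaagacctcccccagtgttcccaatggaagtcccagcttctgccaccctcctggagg
Gnat2 region 3, chr3:108094203-108094403, plus strand: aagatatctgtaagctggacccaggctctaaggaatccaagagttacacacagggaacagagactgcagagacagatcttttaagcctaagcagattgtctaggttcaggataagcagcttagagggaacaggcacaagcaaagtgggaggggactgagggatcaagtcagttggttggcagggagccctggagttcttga
Pde6c region 5, chr19:38134141-38134341, plus strand: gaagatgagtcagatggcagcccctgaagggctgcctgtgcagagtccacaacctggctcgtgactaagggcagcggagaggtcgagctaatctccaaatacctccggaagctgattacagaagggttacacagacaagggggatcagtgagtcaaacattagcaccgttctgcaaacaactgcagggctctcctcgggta
TAATCC was present around the summit of 10 of the 38 regions of the cone genes (26.3%) and of 15.4% of the 73449 regions on assembled chromosomes. Among the 13 that were called in all 18 libraries, Opn1sw region 3, Opn1mw region 1 and Pde6c region 4 held it (23.1%, against 14.2% of all such regions). TAATTA was present in 1 of the 38 (2.6%, against 4.2%), the promoter region of Arr3. AGGTCA was present in 2 of the 38 (5.3%, against 14.8%), at the Opn1sw promoter and in Arr3 region 2.

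For 3 of the genes the 250 bases upstream of the start site are shown, because their promoters span the range found: a peak in all libraries for Arr3, in some for Opn1sw and in none for Opn1mw. They are RefSeq sequences on GRCm38 (mm10), the table of which matched 6 of the 9 genes, and capitals mark the same 3 motifs.
Arr3 upstream sequence, chrX:100605247-100605496, plus strand: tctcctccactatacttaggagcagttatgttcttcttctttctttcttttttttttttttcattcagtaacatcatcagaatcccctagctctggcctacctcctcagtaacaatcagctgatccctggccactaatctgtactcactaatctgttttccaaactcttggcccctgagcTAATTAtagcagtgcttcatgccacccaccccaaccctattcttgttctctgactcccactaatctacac
Opn1sw upstream sequence, chr6:29380514-29380763, minus strand: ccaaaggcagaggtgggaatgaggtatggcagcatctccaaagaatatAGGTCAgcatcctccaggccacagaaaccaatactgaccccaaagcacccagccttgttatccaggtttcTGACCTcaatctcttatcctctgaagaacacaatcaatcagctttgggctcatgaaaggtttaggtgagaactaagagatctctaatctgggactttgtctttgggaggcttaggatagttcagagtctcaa
Opn1mw upstream sequence, chrX:74127216-74127465, plus strand: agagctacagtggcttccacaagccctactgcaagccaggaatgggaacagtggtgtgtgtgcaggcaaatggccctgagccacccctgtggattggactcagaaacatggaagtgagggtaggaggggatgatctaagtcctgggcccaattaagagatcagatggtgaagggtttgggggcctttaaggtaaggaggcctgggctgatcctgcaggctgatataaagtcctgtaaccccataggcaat
The Arr3 sequence held 1 TAATTA and the Opn1sw sequence 2 AGGTCA matches, and the Opn1mw sequence held no match to the 3 motifs. Over 32851 upstream sequences of this length, TAATCC was found in 6.3%, TAATTA in 4.8% and AGGTCA in 14.0%.

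Of the 38 regions, 13 (34.2%) were called in all 18 libraries, against 24751 (33.6%) of all regions. By the position of their summits, 28.9% lay in promoters, 2.6% in exons, 55.3% in introns and 13.2% between genes, while the corresponding shares of all regions were 19.4%, 6.5%, 47.5% and 26.6%. Some of these promoters belong to neighbouring genes: Ccdc136, Gm26220 and Gm44354 in the window of Opn1sw, Ampd2 and Gm12500 in that of Gnat2, and Rbp4 in that of Pde6c. The remaining 7 peaks of the windows were listed in a single library each.

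**Figure D1:**
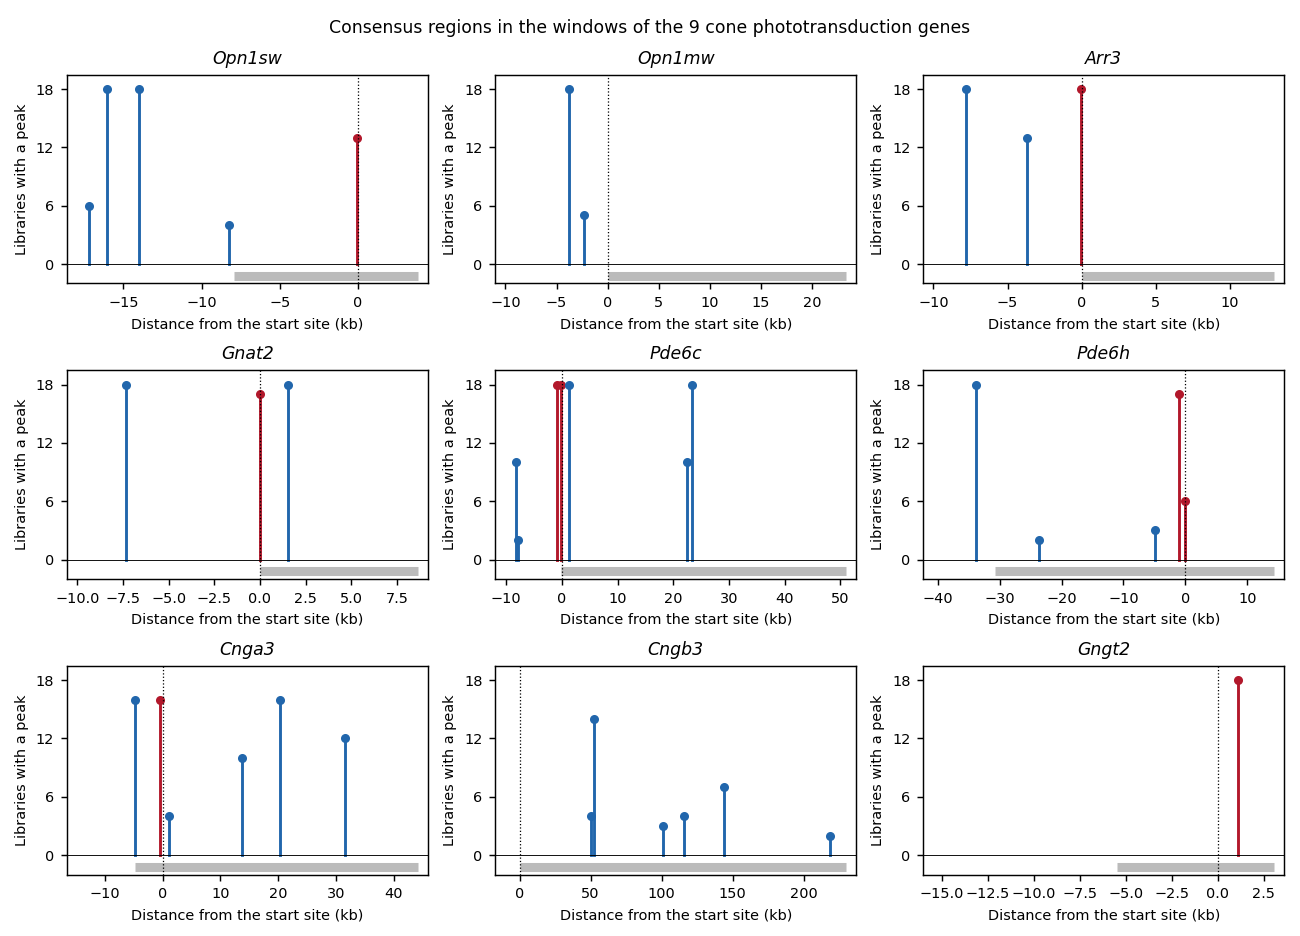
Each stem is a consensus region at its median summit, with the distance from the gene's start site in kb on the horizontal axis and the number of libraries that called it (of 18) on the vertical axis. Red stems overlap a promoter of the gene, grey bars show the annotated gene span, and Opn1mw and Cngb3 show no red stem.

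Opn1sw encodes the short-wavelength opsin. Its promoter region (chr6:29380169-29380837, summit 54 bp upstream of the start site) was called in 13 of 18 libraries. At 3mo these were 3 of 3 contralateral controls, 2 of 3 IOP and 2 of 3 untreated retinas, and at 18mo they were 2, 3 and 1 of 3. Where it was called, its best peak stood between the 0.278th and the 64.5th percentile of the library's own list by −log10 q, with a median of 27.1. The region called in all 18 libraries was Opn1sw region 3 (chr6:29394234-29394885), 14006 bp upstream and between genes, with a median list percentile of 73.5. The promoter of the opsin was missing from 5 libraries in which this upstream stretch was listed. Opn1sw region 4, called in every library too, is the promoter of Ccdc136 and Gm26220.

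Opn1mw encodes the medium-wavelength opsin, the gene lies on the X chromosome, and no consensus region overlapped its promoter. Opn1mw region 1 (chrX:74123365-74124096), 3827 bp upstream, was called in all 18 libraries at list percentiles of 75.4 to 89.3. No other region of the 9 genes had a higher median list percentile (83.1). Opn1mw region 2, 2274 bp upstream, was called in 5 libraries, of which 4 were of 3mo retinas.

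Arr3 encodes cone arrestin. Its promoter region (chrX:100605192-100605679) was called in all 18 libraries with a median list percentile of 69.5. Of its upstream regions, Arr3 region 1, 7828 bp upstream, was called in all 18 and Arr3 region 2, 3717 bp upstream, in 13.

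Gnat2 encodes the cone transducin alpha subunit. Its promoter region (chr3:108092537-108093264) was called in 17 libraries, all but 1 of the 18mo IOP libraries, with a median list percentile of 34.3. Gnat2 region 3 (chr3:108094126-108094775), 1514 bp downstream within an intron, was called in all 18 with a median list percentile of 77.6. Gngt2 encodes the cone transducin gamma subunit, and its single region (chr11:95843345-95844162) overlapped promoters of both Gngt2 and Abi3. The summit of that region lay outside the promoters, in an exon 1094 bp downstream of the start site used for distances. The region was called in all 18 libraries at list percentiles of 67.4 to 90.4, and the 2 genes cannot be told apart there.

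Pde6c encodes the catalytic subunit of the cone phosphodiesterase and had 7 regions, of which 4 were called in all 18 libraries. Its promoter held Pde6c region 3 (808 bp upstream, median list percentile 39.0) and Pde6c region 4 (209 bp upstream, 44.9). Within introns, Pde6c region 5 (1295 bp downstream) and Pde6c region 7 (23319 bp downstream) had median list percentiles of 63.7 and 32.9. Pde6h encodes the inhibitory gamma subunit. Its promoter was overlapped by Pde6h region 4, called in 17 libraries with a median list percentile of 44.5. The summit of that region lay outside the promoter, 1082 bp upstream of the start site and in an intron. Pde6h region 5, with its summit in the promoter (59 bp upstream), was called in 6 libraries with a median list percentile of 15.4. The only region of its window that every library called was Pde6h region 1, 33748 bp upstream of that start site and within Erp27.

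Cnga3 and Cngb3 encode the subunits of the cone channel, and neither window held a region called in all 18 libraries. The promoter region of Cnga3 (chr1:37218534-37219269) was called in 16 libraries with a median list percentile of 21.8. Both libraries without it were 3mo untreated retinas. Cnga3 region 1 (chr1:37214171-37214527), 4838 bp upstream of the start site used for distances, covers the annotated start of the gene. That region was not counted as a promoter region, and was called in 16 libraries with a median list percentile of 59.977. No region overlapped the promoter of Cngb3, although its window of 239.8 kb was longer than any other of the 9. The most often called of its 6 regions was Cngb3 region 2 (chr4:19332945-19333294), in an intron 52222 bp downstream, in 14 libraries.

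**Figure D2:**
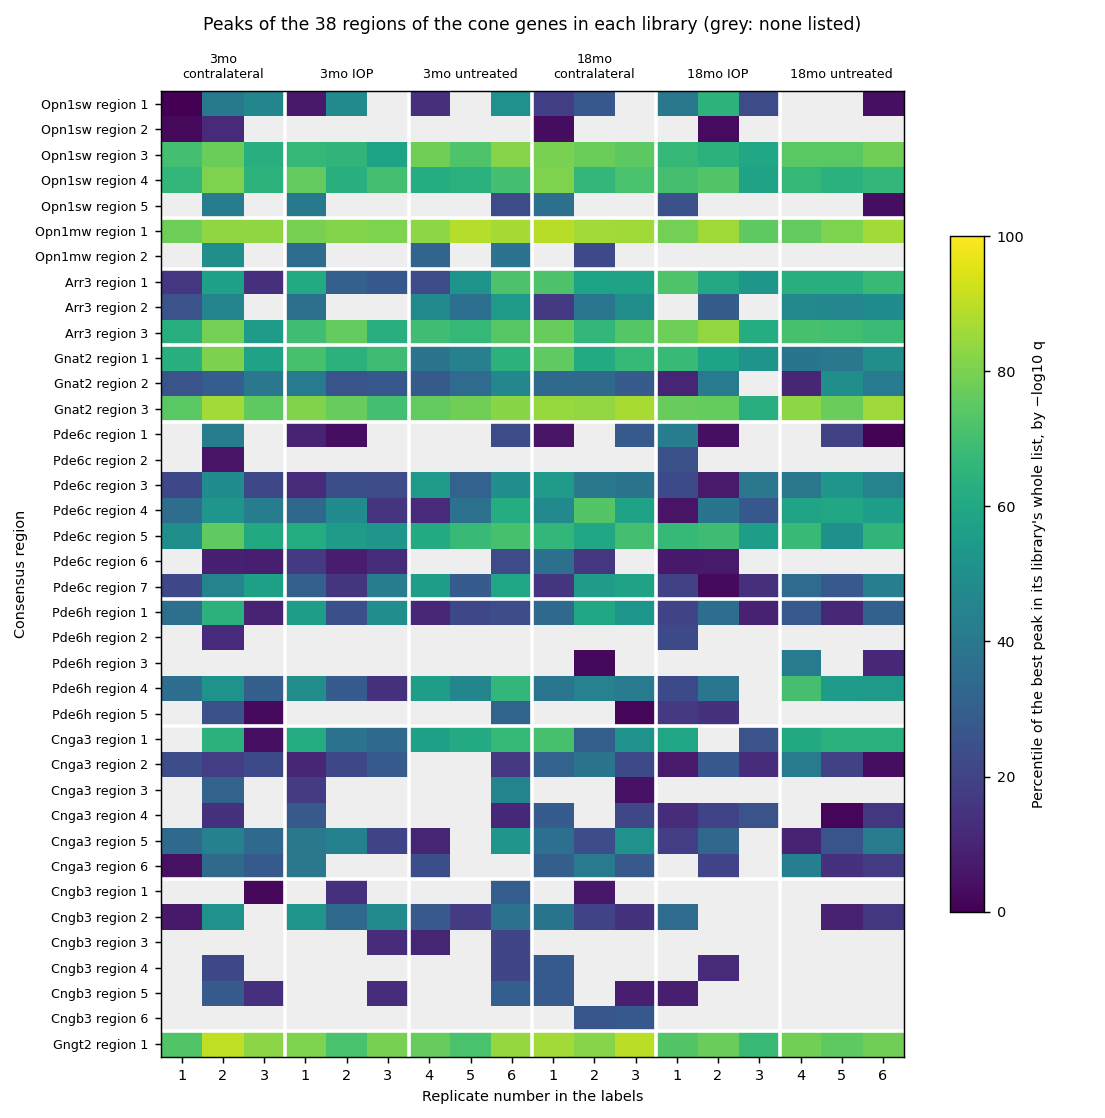
Rows are the 38 regions of the cone genes, columns the 18 libraries by group and replicate number, and colour gives the percentile of the region's best peak in the library's own list, with grey where no peak was listed. Opn1mw region 1 and Gngt2 region 1 are bright in every library, while most rows of Cngb3 are grey.

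Of the 9 cone genes, 3 had a promoter peak in all 18 libraries, 4 in some and 2 in none. A promoter peak here is any region that overlaps a promoter of the gene, wherever its summit lies. All 8 rod counterparts (Sag, Gnat1, Pde6a, Pde6b, Pde6g, Cnga1, Cngb1 and Gngt1) and all 11 other cascade genes (Gnb3, Gnb5, Grk1, Rcvrn, Rgs9, Rgs9bp, Gucy2e, Gucy2f, Guca1a, Guca1b and Slc24a2), many of which rods use as well, had one in all 18. Over all protein-coding genes the share was 53.2%, and 37.5% had none. The median list percentile of the promoter peak ran from 21.8 to 78.5 in the 7 cone genes that had one (median 44.5), from 68.5 to 86.0 in the rod counterparts (median 81.1) and from 56.4 to 89.4 in the other cascade genes (median 82.3). The cone gene median is the value of Pde6h, taken from Pde6h region 4, whose summit lay outside the promoter. The lowest cone value, that of Cnga3, leaves out Cnga3 region 1 at the annotated gene start (median list percentile 59.977). The lowest rod gene, Cnga1, stood above 5 of the 7 cone genes. Thrb and Rxrg, called in all 18 libraries, stood at 85.5 and 66.1. The medians of the marker lists of other retinal cells lay below that of the cone genes, at 16.0 for bipolar, 25.9 for amacrine and horizontal, 23.3 for Müller glia and 38.1 for ganglion cell genes with a promoter peak. These lists were short, with ranges of 15.8 to 29.9, 15.6 to 44.0, 8.7 to 88.2 and 27.4 to 48.9 in that order. Glul of Müller glia, at 88.2, stood above every cone gene, and Pou4f1 of ganglion cells, at 48.9, above their median. The ganglion cell median rested on Rbpms and Pou4f1 alone. In whole retina, fewer cells of a type and less accessible chromatin per cell cannot be told apart.

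**Figure D3:**
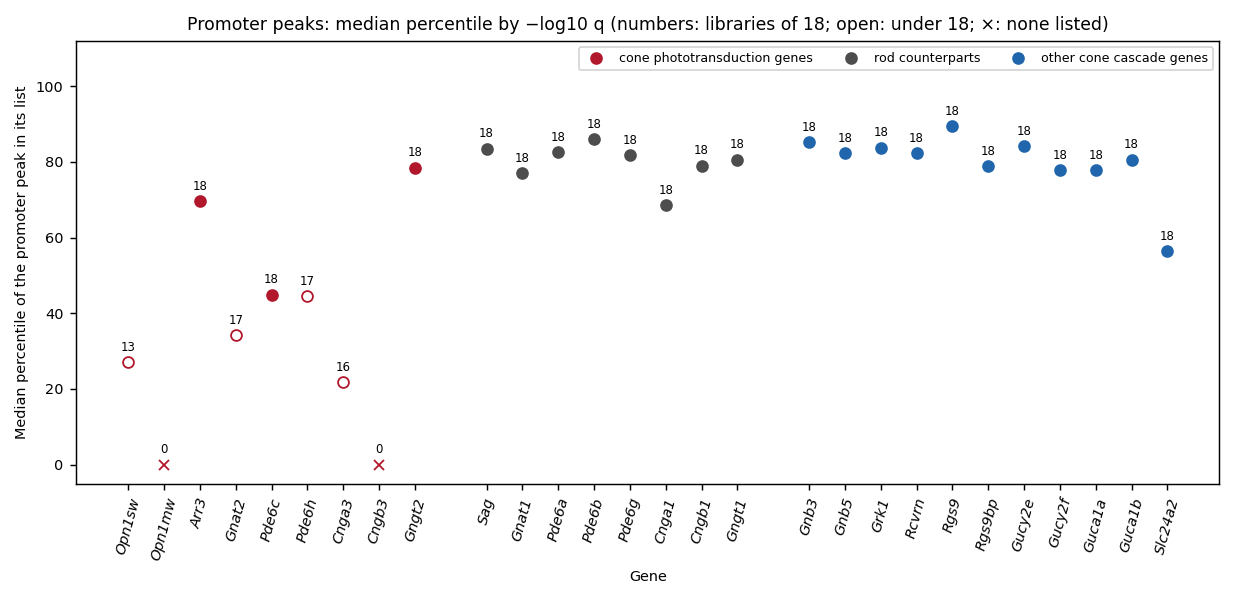
Points give, for each gene, the median percentile of its promoter peak in the lists of the libraries that called it, and the number above is how many of 18 did. Cone genes lie between 21.8 and 78.5, and Opn1mw and Cngb3, drawn as crosses at 0, had no promoter region.

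The first comparison asked whether ageing changed which regions were accessible. Here the 6 control libraries of 18mo retinas (contralateral and untreated) were set against the 6 of 3mo retinas. None of the 38 regions differed in calling (Fisher's exact test, two-sided). Only the 4 regions called in 5 to 7 of the 12 control libraries could reach a p under 0.05, which were Pde6c region 1, Pde6c region 6, Cnga3 region 4 and Cngb3 region 5. Pde6c region 1 and Cnga3 region 4 were each called in 4 of 6 controls at 18mo and 2 of 6 at 3mo (exact p = 0.567). The 201 bases around the summit of Cnga3 region 4 are short repeats in tandem, and what this did to its calls was not tested. The Opn1sw promoter was called in 3 of 6 at 18mo and 5 of 6 at 3mo (exact p = 0.545), and the Cnga3 promoter in 6 and 4 of 6 (exact p = 0.455). Of the 9868 regions of the whole table that could reach a p under 0.05, 3.19% did so unadjusted with more calls at 18mo, and 0.385% with more calls at 3mo. None passed after adjustment (smallest adjusted p = 0.345). Fisher's exact test on 6 against 6 libraries cannot give a p below 0.00216. A region could therefore pass adjustment only if a great many regions reached that floor, and no absence of change follows.

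The number of peaks per window did not differ with age for any of the 9 genes beyond the spread between libraries. Numbers were compared as listed, without scaling to the length of each list. Cnga3 had 3, 6, 4, 3, 1 and 6 peaks in the 3mo controls and 5, 4, 6, 4, 5 and 7 in the 18mo controls, and the ranges overlapped. The means were 3.83 ± 1.94 and 5.17 ± 1.17 (SD, n = 6 each, exact permutation test, two-sided, p = 0.249). Gnat2 had 3.33 ± 0.816 peaks at 3mo and 4.17 ± 0.753 at 18mo (exact permutation p = 0.177, n = 6 each), which was the lowest p among the 9 genes. Opn1mw had 2 peaks in each 3mo untreated library and 1 in each 18mo untreated library, while both contralateral groups had 1 or 2. Over all 6 controls per age it had 1.67 ± 0.516 peaks at 3mo and 1.17 ± 0.408 at 18mo (exact permutation p = 0.242). Cngb3 had 3 peaks in each 18mo contralateral control and 0, 1 and 1 in the 18mo untreated libraries, so that its 18mo controls of both kinds did not overlap. Its mean over the controls was 2.33 ± 1.51 at 3mo and 1.83 ± 1.33 at 18mo (exact permutation p = 0.697). Of the 17119 gene windows with a peak, 1.73% differed at an unadjusted p under 0.05, and none after adjustment. The permutation p has the same floor as the test on calls. Adjustment over this many windows could pass only if a great many reached it, so it cannot decide about single genes.

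**Figure D4:**
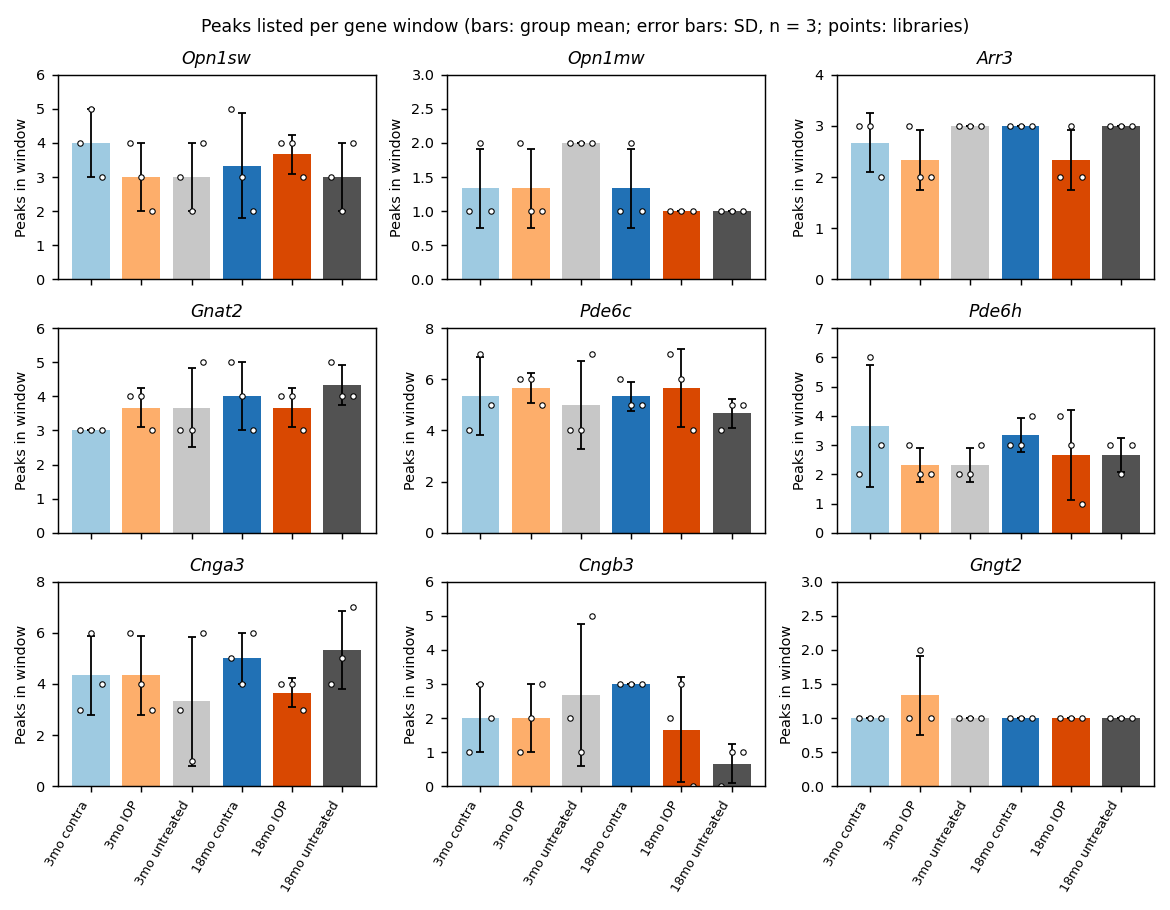
Bars give the mean number of peaks per gene window in each of the 6 groups, error bars the SD (n = 3) and points the libraries. The points of the groups overlap widely for Cnga3 and Pde6h, the 18mo contralateral and untreated points of Cngb3 lie apart, and Gngt2 had 1 peak in 17 of 18 libraries.

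The 13 regions called in all 18 libraries could also be compared by their place in each library's order. The 24751 regions shared by all libraries were ranked by −log10 q within each library, and the place is given as a percentile of that order. It is a relative place and no amount of open chromatin. Differences were tested with limma on normal scores of the ranks, with Benjamini-Hochberg adjustment over all shared regions. No region of the cone genes passed for age, where 0.0808% of the shared regions did.

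Arr3 region 1 showed the widest difference with age. It stood at percentiles 2.2, 7.0 and 0.9 in 3mo contralateral controls and 2.5, 20.6 and 30.4 in 3mo untreated retinas. In 18mo retinas it stood at 33.2, 18.5 and 12.8 in contralateral controls and 27.3, 30.0 and 34.4 in untreated ones. The 18mo values lay above all 3mo values in the contralateral controls, and overlapped them in the untreated retinas. The means were 26.0 at 18mo and 10.6 at 3mo, a difference in normal score of 0.86 ± 0.28 (SE, limma adjusted p = 0.373, exact permutation p = 0.039 unadjusted and 0.581 adjusted). Pde6c region 4, at the promoter, stood at a mean percentile of 21.1 at 18mo and 8.6 at 3mo. The difference was 0.59 ± 0.27 (SE, limma adjusted p = 0.598, exact permutation p = 0.048 unadjusted and 0.605 adjusted). These were 2 of the 13 regions with an unadjusted p under 0.05, both higher at 18mo, while 4.36% of the shared regions were placed higher and 3.71% lower at that level. With kind of control in the fit, only Arr3 region 1 had an unadjusted p under 0.05. The median difference of the 13 was 0.02, and that of all shared regions was −0.0049.

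The remaining 11 had differences of −0.36 to 0.17 in normal score and adjusted p-values of 0.761 or more with limma. Gnat2 region 3 and Opn1sw region 3 were at mean percentiles of 63.9 and 49.3 at 18mo and of 57.7 and 48.4 at 3mo. The Arr3 promoter stood at 38.6 and 37.9. Gnat2 region 1, the promoter of Ampd2, differed between kinds of control rather than ages, with 22.9 to 47.7 in the 6 contralateral and 6.0 to 17.1 in the 6 untreated libraries, the same libraries that had the narrower peaks. Its age effect did not differ between the kinds (limma adjusted p = 0.969 for the difference).

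The second comparison asked what a short rise in pressure did at each age, and set IOP against contralateral control retinas. No region of the cone genes was called in all 3 IOP libraries and in no contralateral control of the same age, or the reverse, at either age. Over all regions, 0.217% of regions were gained and 0.241% lost in this way at 3mo, and 0.239% were gained and 2.23% lost at 18mo. The windows of the rod counterparts held 3 such regions of 68 and those of the other cascade genes 1 of 57. With 3 libraries against 3 an exact test on the calls cannot go below 0.1, so these counts have no test within an age.

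Over both ages no region of the cone genes differed in calling (two-sided exact test, conditional on the calls of each age). Cnga3 region 6, within an intron 31631 bp downstream, came closest: 6 of 6 contralateral controls and 2 of 6 IOP libraries called it, with 1 IOP library at each age. Its exact p of 0.08 was the smallest that its calls allowed. Arr3 region 2 was called in 5 of 6 contralateral controls and 2 of 6 IOP libraries (exact p = 0.26, adjusted p = 0.785). The Opn1sw promoter was called in 5 of 6 libraries of either kind and the Cnga3 promoter in all 12. Arr3 region 2, Pde6c region 1, Pde6h region 5 and Cngb3 region 5 were the 4 that could reach a p under 0.05. Of the 5572 regions that could reach it in the whole table, 1.62% had an unadjusted p under 0.05 with more calls after IOP and 3.43% with fewer. None passed after adjustment (smallest adjusted p = 0.397). This exact test cannot give a p below 0.005, so a region could pass adjustment only if a great many regions reached that floor.

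The windows of the 9 genes held 18 to 36 peaks per library. At 3mo the means were 27.3 ± 7.57 in contralateral controls and 26.0 ± 4.00 after IOP, and at 18mo they were 29.3 ± 2.31 and 25.3 ± 6.35 (SD, n = 3 each). Per 10000 listed peaks these were 5.61 ± 0.171, 5.52 ± 0.503, 5.21 ± 0.297 and 5.64 ± 0.552. The untreated groups, outside this comparison, were lower, at 4.69 ± 0.704 at 3mo and 4.87 ± 0.505 at 18mo. The library with 18 peaks was also the one with the shortest list, 18mo IOP replicate 3. Per gene, the widest difference between IOP and contralateral retinas was that of Pde6h (2.5 against 3.5 peaks per library, exact permutation test within age, p = 0.37, n = 6 each) and the lowest p that of Arr3 (2.33 against 2.83, exact permutation p = 0.26). Of all gene windows, 1.16% differed at an unadjusted p under 0.05, and none after adjustment, which the floor of this permutation p again left hardly possible.

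In the order among shared regions, none of the 13 regions passed adjustment for IOP over both ages, where 0.166% of all shared regions did. Opn1sw region 3 stood at percentiles 52.6, 40.7 and 38.9 in 3mo contralateral controls and at 32.2, 38.2 and 27.1 after IOP. At 18mo it stood at 50.9, 53.8 and 42.8 in contralateral controls and at 36.1, 31.8 and 42.1 after IOP. The groups did not overlap at either age, and the 6 untreated libraries stood at 45.5 to 56.4. The difference was −0.31 ± 0.10 in normal score (SE, limma adjusted p = 0.335). The exact permutation p was 0.005 unadjusted, the smallest that permutation within age can give, and 0.332 adjusted. How many of all shared regions were apart in this way was not counted.

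Gnat2 region 3 stood at 59.8, 63.0 and 58.4 in 3mo contralateral controls and at 60.6, 58.2 and 46.6 after IOP. At 18mo it stood at 62.0, 66.5 and 69.7 and at 54.8, 54.0 and 47.0. The groups overlapped at 3mo and were apart at 18mo. The difference over both ages was −0.25 ± 0.09 (SE, limma adjusted p = 0.402, exact permutation p = 0.02 unadjusted and 0.452 adjusted). Gngt2 region 1 stood at 57.1, 74.4 and 71.2 in 3mo contralateral controls and 59.9, 48.5 and 63.3 after IOP, and at 65.7, 62.2 and 75.7 and at 48.3, 55.4 and 53.0 at 18mo. Its difference was −0.35 ± 0.11 (SE, limma adjusted p = 0.365, exact permutation p = 0.015 unadjusted and 0.408 adjusted). The groups overlapped at 3mo and were apart at 18mo, and the 6 untreated libraries stood at 47.4 to 58.3. These 3 regions had an unadjusted p under 0.05 over both ages, all lower after IOP, while 4.7% of shared regions were placed higher and 4.17% lower at that level. Ranked by fold over background instead, Gngt2 region 1 kept an unadjusted p under 0.05, Opn1sw region 3 (−0.24 ± 0.14, SE) and Gnat2 region 3 (−0.27 ± 0.14) were still lower but did not, and the Arr3 promoter had one with a higher place after IOP (0.57 in normal score). The median difference of the 13 was −0.13, and that of all shared regions was −0.0017.

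The Arr3 promoter stood at a mean percentile of 49.8 after IOP and 38.1 in contralateral controls (0.30 ± 0.14 in normal score, SE, limma adjusted p = 0.590), and Arr3 region 1 at 22.4 and 12.4 (adjusted p = 0.638). Pde6c region 4 stood at 5.4 and 14.8, with a difference of −0.67 ± 0.34 in normal score (SE, limma adjusted p = 0.638). One contralateral control, 18mo replicate 2, stood at 44.8 and the other 5 at 4.0 to 12.9, and the difference was −0.45 without it and −0.42 without 18mo IOP replicate 1. Opn1mw region 1 stood at 64.2 and 67.6 (limma adjusted p = 0.846).

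Within each age no region of the cone genes passed adjustment either, where 0.0162% of the shared regions did at 3mo and 0.0525% at 18mo (limma). At 3mo, 1 of the 13 had an unadjusted p under 0.05, Opn1sw region 3, which was lower after IOP (−0.31 ± 0.14, SE), while 2.23% of the shared regions were placed higher and 2.02% lower. At 18mo, 5 of the 13 did, while 4.97% were placed higher and 4.12% lower. Opn1sw region 3 (−0.32 ± 0.14), Gnat2 region 3 (−0.37 ± 0.12) and Gngt2 region 1 (−0.41 ± 0.16) were lower. The Arr3 promoter (0.46 ± 0.20) and Pde6c region 5 (0.38 ± 0.13) were higher. The Arr3 promoter stood at 44.1, 31.8 and 40.2 in 18mo contralateral controls and at 56.6, 68.0 and 45.5 after IOP, without overlap (limma adjusted p = 0.535).

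The effect of IOP was also compared between ages by an interaction term in limma, and none of the 13 regions passed. None of the 24751 shared regions passed either (smallest limma adjusted p = 0.719). At an unadjusted p under 0.05, 452 of them had a higher and 493 a lower difference, and so did 1 of the 13, which was higher. Pde6c region 5 had the lowest p. It stood at 23.7, 35.6 and 34.7 in 3mo contralateral controls and at 24.0, 21.9 and 19.2 after IOP, and at 18mo at 21.8, 20.7 and 32.5 and at 36.8, 40.2 and 37.5. The IOP libraries lay lower on average at 3mo, with overlap, and above all contralateral controls at 18mo. The effects were −0.29 ± 0.13 and 0.38 ± 0.13 in normal score, a difference of 0.67 ± 0.19 (SE, limma adjusted p = 0.991).

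**Figure D5:**
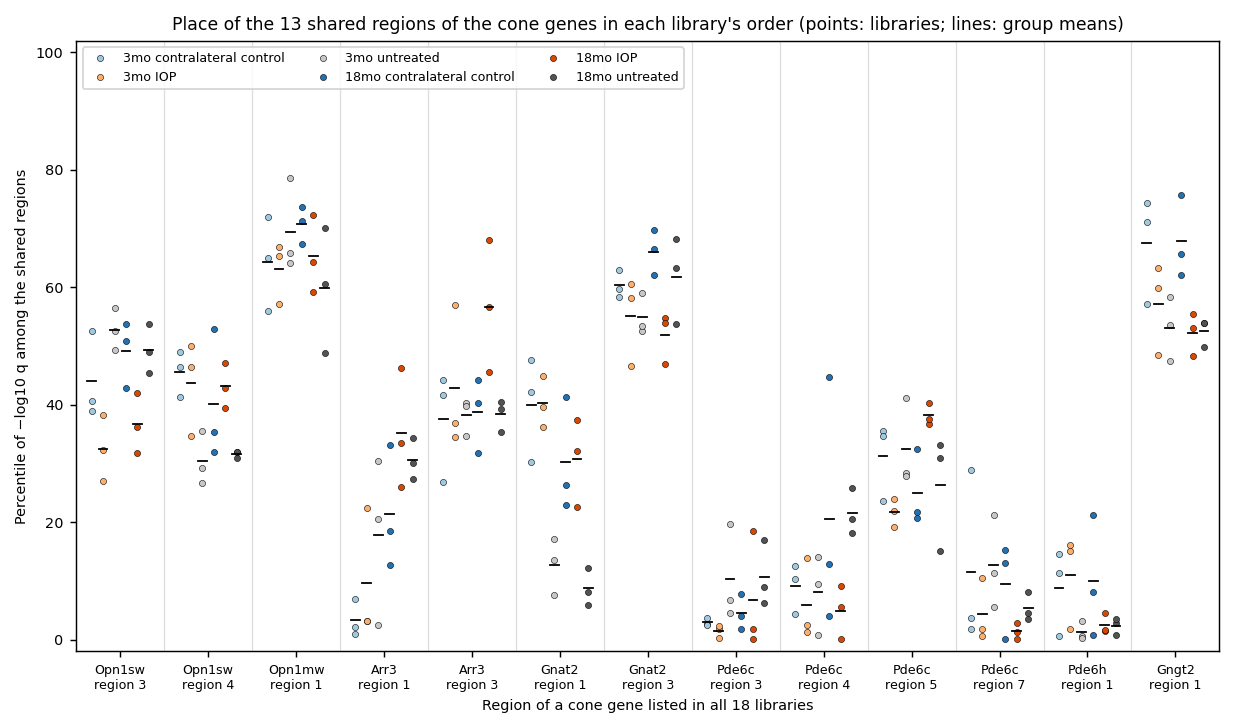
Points are libraries, coloured by group, and short lines are group means of the percentile of −log10 q among the 24751 shared regions, for the 13 shared regions of the cone genes. Opn1mw region 1, Gnat2 region 3 and Gngt2 region 1 stand in the upper range, and Pde6c regions 3 and 7 and Pde6h region 1 stand near the bottom of the order in most libraries.

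Among promoters of other genes, those whose place varied most like the mean of 4 cone gene promoter regions were named by a rule. The likeness was Pearson's r over the 18 libraries with the mean normal score of the 4 promoter regions of the cone genes that all libraries called (Arr3, Pde6c with 2, and Gngt2). These regions did not vary together. Between them r ran from −0.373 (Arr3 with Gngt2) to 0.205 (the 2 of Pde6c), so their mean is no pattern common to the cone genes. Among the highest of 11014 promoter regions were those of Cdyl (r = 0.723), Mamstr (0.689), Acot11 (0.683) and Atg16l1 (0.676). The median over all promoter regions was −0.090 and the 95th percentile 0.380. The libraries share their age, treatment and kind of control, so these values describe likeness only.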

How the data were processed

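Peaks were called by the authors with MACS2, 1 list per library without pooling, at a q-value threshold of 0.05. The labels' processing notes also name STAR 2.7.8a, bedtools 2.29.2 and build mm10. The deposited lists hold, per peak, a score, the fold over local background (a ratio) and −log10 of the p-value and q-value. Read filtering and any shift for the transposase were not given in the sources used here. Read counts and the depth of the libraries are unknown from the lists, so no test used them.

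Peaks of all libraries were merged at 1 bp overlap, and 73567 of 99792 merged regions with peaks in at least 2 libraries were kept. A region without a peak may be open but under the caller's threshold. Distances are from the start of the principal transcript. Age was tested with Fisher's exact test over 12 controls, IOP with an exact test stratified by age, peak numbers with exact permutation tests and order with limma 3.58.1, adjusted by Benjamini-Hochberg over the whole table. The tests were checked on simulated data. All 9 genes were named, others by fixed lists, by a promoter in a window or by likeness, and Erp27 and the marker genes for position or tissue. Some genes of these lists are not reported here, and the counts leave them out. The genes and lists were chosen with earlier results of these data known. File names of untreated libraries carry other replicate numbers than the labels, and the labels were used. Alternatives covered the q threshold, equal list lengths, the overlap, a window from 2 kb, the kind of control, rank by fold, regions called in the 12 libraries compared, a replicate block and each library left out.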

Additional observations from a re-analysis of the deposited data

Results flagged for a closer look

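In 7 of 41 sets of 6 control values of 1 age, 1 library stood far from the other 5. Chance flags about 1 in 20 sets of continuous values. That rate does not hold for the 4 peak numbers among the 7, which are small whole numbers with ties, where a difference of 1 peak can be enough. Pde6c region 3 stood at percentile 19.6 among shared regions in 3mo untreated replicate 4 and at 2.51 to 6.81 in the other 3mo controls. Arr3 had 2 peaks in 3mo contralateral control replicate 3 and 3 in each of the others. Gnat2 had 5 peaks in 3mo untreated replicate 6 and 3 in each of the others. Pde6h had 6 peaks in 3mo contralateral control replicate 2, the library with the longest list, and 2 to 3 in the others. At 18mo, Opn1sw region 4 stood at percentile 52.9 in contralateral control replicate 1 and at 31.0 to 35.4 in the others. Pde6h region 1 stood at 21.2 in 18mo contralateral control replicate 2 and at 0.768 to 8.08 in the others, and Opn1mw had 2 peaks in the same library and 1 in each of the others.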

How the results depend on the processing

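The counts of regions or windows of the cone genes that passed adjustment, or were exclusive to 1 treatment, were recomputed under 119 alternatives in all, and 7 moved, all of them counts of regions exclusive to IOP or contralateral libraries. With the same number of peaks kept in every library, 1 region was gained at 18mo, the Opn1sw promoter. With 1 library left out, the count ran from 0 to 1 at 3mo and from 0 to 2 at 18mo, where fewer libraries have to share a call. At 3mo, leaving out contralateral control replicate 1 made Pde6h region 5 lost, leaving out contralateral control replicate 3 Opn1sw region 2, and leaving out IOP replicate 1 Cnga3 region 6. At 18mo, leaving out contralateral control replicate 1 made Cngb3 region 6 lost, leaving out IOP replicate 1 Cngb3 region 2, and leaving out IOP replicate 2 both Cnga3 region 6 and Arr3 region 2.

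Some differences that passed no test changed sign, and the cause was not tested. With equal numbers of peaks, Gnat2 differed by −0.167 peaks with age, and the IOP differences were 0.667 for Opn1sw, −0.833 for Pde6c, 0.5 for Cnga3 and 0.5 for Cngb3. With windows from 2 kb upstream, Gnat2 differed by −0.5 after IOP. Ranked by fold, the age differences in normal score were 0.0496 for Opn1sw region 4 and −0.023 for Arr3 region 3. With 1 library left out, the age difference in peak number ran from −0.4 to 0.2 for Pde6c and from −0.767 to 0.0333 for Cngb3. That in normal score ran from −0.0268 to 0.0621 for Opn1sw region 3, from −0.143 to 0.00252 for Opn1sw region 4, from −0.103 to 0.0427 for Opn1mw region 1 and from −0.0422 to 0.0551 for Arr3 region 3. It ran from −0.00702 to 0.258 for Pde6c region 3, from −0.0262 to 0.353 for Pde6h region 1 and from −0.0897 to 0.0728 for Gngt2 region 1. The IOP difference ran from −0.0361 to 0.099 for Opn1sw region 4, from −0.0513 to 0.0922 for Gnat2 region 1, from −0.0111 to 0.102 for Pde6c region 5 and from −0.352 to 0.0564 for Pde6h region 1.

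Same-numbered IOP and contralateral libraries correlated at −0.29 to 0.31 in their deviations, and controls of both ages at −0.43 to 0.026. Other-numbered IOP and contralateral libraries of the same age correlated at −0.39 to 0.45. These values cannot tell whether same-numbered eyes came from 1 animal, because the spread between libraries can hide a likeness within an animal. With the replicate block, 0 regions and 0 windows of the cone genes passed adjustment, as without it. The unadjusted age count in the order fell from 2 to 1 with the block, where Pde6c region 4 was lost, and also without 3mo contralateral control replicate 2, 3mo untreated replicate 4 or 5, 18mo contralateral control replicate 2 or 18mo untreated replicate 4 or 6. The unadjusted IOP count of lower places was 4 with the block and 3 to 5 with 1 library left out, the 5 without 18mo contralateral control replicate 1 or 18mo IOP replicate 3. That of higher places rose from 0 to at most 2, without 3mo contralateral control replicate 2 or 3mo IOP replicate 3. Without 3mo IOP replicate 1 or 18mo IOP replicate 2, 1 region of the cone genes had an unadjusted p under 0.05 for calling after IOP. Within ages, the block left 0 of the cone gene regions with an unadjusted p under 0.05 at 3mo, and 2 higher and 2 lower at 18mo. Those at 18mo were the Arr3 promoter and Pde6c region 5, and Gnat2 region 3 and Pde6c region 4. Opn1sw region 3 had an unadjusted limma p of 0.091 at 3mo and 0.079 at 18mo, and Gngt2 region 1 of 0.051 at 18mo. Of the 24751 shared regions, 542 were placed higher and 537 lower at 3mo, and 1124 and 982 at 18mo. A peak list holds no depth, and a region under the threshold of the caller cannot be told from a closed one.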
